A study of Mus musculus with 4 samples.

Results

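Transcripts of 10 integrin chains of T cells were followed in T helper 17 (Th17) cultures of 2 genotypes, with 2 libraries each. The chains are 5 alpha chains (Itgal, Itga4, Itgae, Itgav and Itga6) and 5 beta chains (Itgb2, Itgb1, Itgb7, Itgb3 and Itgb8), chosen by gene symbol among the 34745 gene rows of the deposited table for their roles in leukocyte adhesion, gut homing and the activation of TGF-beta. All 10 symbols were found once and all 10 passed the filter on low counts, which kept 12927 genes. Naive CD4+ T cells from the spleen of C57BL/6 mice had been cultured in Th17 conditions for 3 days, and came from mice of the genotype labelled Setd2-CD4 cre (replicates 22 and 24) and from wild-type (WT) mice (replicates 13 and 15). Setd2 encodes the enzyme that trimethylates lysine 36 of histone H3. Cre expressed from Cd4 sequences acts in the T cell lineage from the thymus onward, so the change is not limited to Th17 cells. The sources used here do not give the exons removed, the age of the mice, whether WT mice carried Cre or whether libraries came from separate animals. The p-values therefore reflect no more than the spread among these 4 libraries, which may be technical.

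Integrins are surface receptors made of an alpha and a beta chain, and a chain reaches the surface well only when its partner is there. On T cells, alphaL with beta2 (LFA-1) binds ICAM proteins, alpha4 with beta1 binds VCAM and fibronectin, alpha4 with beta7 binds the gut addressin MAdCAM, and alphaE with beta7 binds E-cadherin on epithelium. The alphav chain pairs with beta1, beta3 or beta8, and several of these pairs release TGF-beta from its latent form, a cytokine that Th17 and regulatory T cells both depend on.

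Of the 10 chains, 3 alpha chains fell and 1 beta chain rose in Setd2-CD4 cre cultures. Itgae was 2.57-fold lower, Itgal 1.72-fold lower and Itga6 1.44-fold lower, while Itgb3 was 1.89-fold higher than in WT. The other 6 chains did not pass edgeR's quasi-likelihood test at a Benjamini-Hochberg adjusted p of 0.05. Over all tested genes the same test called 14.5% lower and 16.2% higher (30.7% in all), so 4 calls among 10 chains lie near the background, and what follows describes single chains. Of all calls 52.7% were higher with TMM factors, against 32.9% with library totals and 37.4% with upper-quartile factors, and the 4 chains kept their direction under each. The median log2 fold change was -0.055 over the chains and -0.0088 over all tested genes, and the median absolute log2 fold change was 0.41 over the chains and 0.39 over all tested genes. The genotypes did not overlap for 5 chains, 4 of them lower and 1 higher, where 70.7% of tested genes did not overlap (36.1% lower and 34.6% higher). In bulk RNA, fewer cells that carry a transcript and less of it per cell cannot be told apart.

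**Figure D1:**
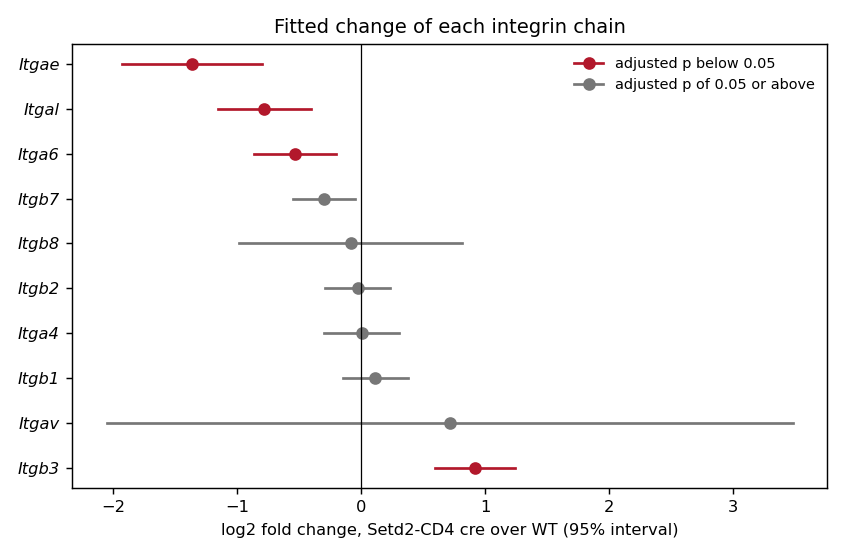
The horizontal axis gives the fitted log2 fold change of Setd2-CD4 cre over WT, with points as estimates and lines as 95% intervals, for each integrin chain down the page. Itgae, Itgal, Itga6 and Itgb3 are drawn in red as past the threshold, and the interval of Itgav runs from -2.05 to 3.49.

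Libraries held 11007343 to 11322621 counts in Setd2-CD4 cre and 12414098 to 12518415 counts in WT, of which the 10 chains took 0.179 and 0.196% in Setd2-CD4 cre and 0.221 and 0.223% in WT. Setd2 itself stood at 144 and 153 CPM (counts over the library total scaled by TMM factors) in Setd2-CD4 cre and at 183 and 176 CPM in WT, a log2 fold change of -0.28 that missed the threshold (edgeR adjusted p = 0.0748), and whole-gene counts do not test whether exons were removed. For the marker lists that follow, the shares over all tested genes were 16.2% called higher and 14.5% called lower. Among markers of the expected cells, 5 of 8 Th17 genes were called higher and none lower, with summed levels of 1320.4 and 1550 CPM in Setd2-CD4 cre and 668 and 777 CPM in WT. Of 8 T cell genes 1 was called higher and 5 lower, with summed levels of 3487 and 3646 CPM in Setd2-CD4 cre and 3975 and 3805 CPM in WT. Of 10 B cell markers 9 were called higher and none lower, with summed levels of 764 and 528 CPM in Setd2-CD4 cre and 256 and 217 CPM in WT, and none was at 0 in all libraries. Of 8 dendritic cell markers 5 were tested and 4 were called higher, namely Flt3, H2-Ab1, H2-Aa and Cd74. Zbtb46 was not called (log2 fold change 0.69, edgeR adjusted p = 0.425). The list summed to 325 and 196 CPM in Setd2-CD4 cre and 94.8 and 89.98 CPM in WT. Siglech was at 0 throughout, and Xcr1 and Clec9a were at 0 in Setd2-CD4 cre. Of 8 markers of CD8 T and NK cells 6 were tested and 3 were called higher, namely Klrd1, Klre1 and Gzma. Gzma lost its call under 4 of 14 alternatives. Cd8a (log2 fold change 0.22, edgeR adjusted p = 0.833), Cd8b1 (0.76, adjusted p = 0.312) and Eomes (-0.32, adjusted p = 0.586) were not called. The list summed to 492 and 307 CPM in Setd2-CD4 cre and 216 and 240.1 CPM in WT. Of 7 gamma-delta T cell symbols 4 were matched and 2 tested, with 1 called higher. That was Blk (log2 fold change 3.25, edgeR adjusted p = 0.000915), whereas Trdc, the delta chain constant gene, was not called (0.071, adjusted p = 0.907). The list summed to 45.7 and 27.8 CPM in Setd2-CD4 cre and 8.68 and 7.99 CPM in WT. Of 6 mast cell and basophil markers only Kit was tested, and it was called higher (log2 fold change 1.44, edgeR adjusted p = 0.00464), while Fcer1a was at 0 in all libraries. The list summed to 291 and 189 CPM in Setd2-CD4 cre and 90.2 and 87.2 CPM in WT. No other marker of this list passed the filter, so the sum does not show a rise beyond Kit. None of 6 stromal and endothelial markers passed the filter (0.584 and 1.10 CPM in Setd2-CD4 cre, 1.37 and 0.532 CPM in WT, with Tek at 0). Several of these other cell types carry integrins too, and neither their presence nor their part in the results below was tested.

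Levels were compared between genes as deposited FPKM, which divides counts by gene length and library depth. Itgb2 led in every library, with 140.4 and 151 FPKM in Setd2-CD4 cre and 166 and 163 FPKM in WT. Itgb7 came next, with 92.9 and 103 FPKM in Setd2-CD4 cre and 138 and 129 FPKM in WT. Itgb8 was last, with 0.133 and 0.227 FPKM in Setd2-CD4 cre and 0.194 and 0.231 FPKM in WT. Among tested genes of the same library, Itgb2 lay at the 98.4 to 98.8 percentile of FPKM and Itgb8 at the 3.11 to 4.84 percentile. The beta chains of LFA-1 and of the gut integrins were thus the most abundant transcripts of the set, and beta8 was supported by few reads, with 20 and 35 counts in Setd2-CD4 cre and 33 and 39 in WT.

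Between these ends the order differed by genotype. In Setd2-CD4 cre, Itgb1 (28.8 and 34.4 FPKM) stood above Itgal (18.2 and 26.3), whereas in WT Itgal (41.6 and 43.1 FPKM) stood above Itgb1 (31.9 and 32.7), with no overlap of the chains in either genotype. Next in Setd2-CD4 cre came Itgb3 (14.3 and 15.1 FPKM), Itga4 (11.3 and 14.3) and Itgav (13.2 and 7.16), which overlapped as neighbours, followed by Itga6 (4.01 and 5.25) and Itgae (1.24 and 0.904). In WT the neighbours after Itgb1 were Itga4 (15 and 13.3 FPKM), Itgb3 (9.66 and 7.58), Itga6 (7.72 and 7.10) and Itgav (3.40 and 10.4), and the last 3 overlapped, with Itgae (2.86 and 3.28) below them. Overlap here is across libraries. Within each library, by these FPKM, Itgb3 stood above Itga4 in Setd2-CD4 cre and above Itga6 in WT. The deposited FPKM imply a length of 12308 bases for Itga6 and 9427 for Itgal, where merged exons of GENCODE M21 cover 9025 and 6569 bases. With the longest coding transcript as the length, the ranks of the means in WT moved for Itga6 (6 in place of 7), Itgav (7 in place of 8) and Itgb3 (8 in place of 6), and no rank moved in Setd2-CD4 cre.

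**Figure D2:**
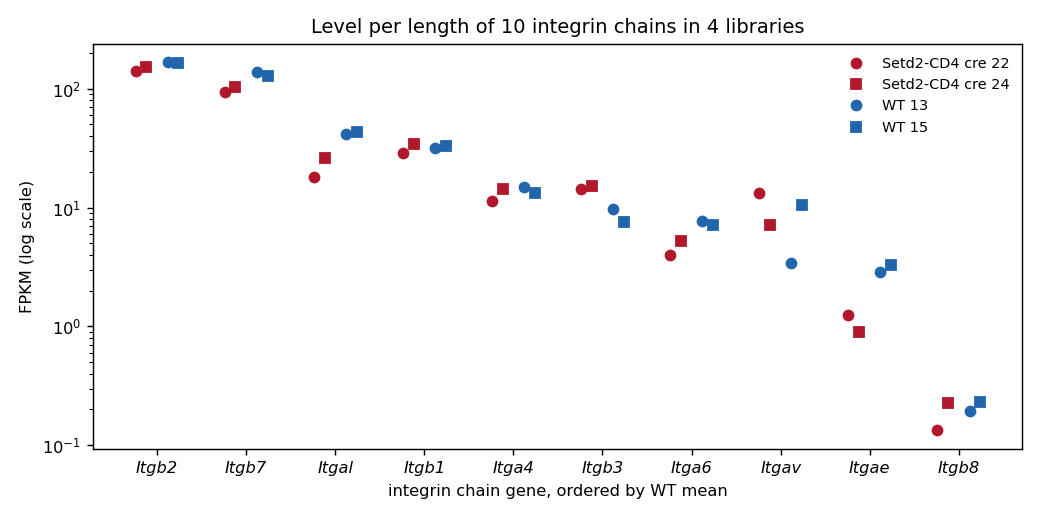
The vertical axis gives FPKM on a log scale for each integrin chain, with 1 point a library (Setd2-CD4 cre in red, WT in blue). Itgb2 and Itgb7 lie highest and Itgb8 lowest in all 4 libraries, and the WT points of Itgav lie farther apart than those of any other chain.

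LFA-1 is the main integrin of leukocytes, and its alpha and beta chains differed in their values. Itgal, the alphaL chain (ENSMUSG00000030830, chromosome 7, 127296260 to 127335138 in GRCm38, plus strand), stood at 184 and 257 CPM in Setd2-CD4 cre replicates 22 and 24, against 374 and 383 CPM in WT replicates 13 and 15. Both Setd2-CD4 cre libraries lay below both WT libraries, and the Setd2-CD4 cre pair was the more spread of the 2 genotypes. The means were 220.4 ± 52.1 CPM in Setd2-CD4 cre and 379 ± 6.40 CPM in WT (SD, n = 2 each). The fitted log2 fold change was -0.78 (SE 0.16, 95% interval -1.16 to -0.41, edgeR adjusted p = 0.0115). The call held under all 14 alternative settings, with log2 fold changes of -1.04 to -0.55 and adjusted p-values of 1.81e-09 to 0.0466.

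Itgb2, the beta2 chain (ENSMUSG00000000290, chromosome 10, 77530252 to 77565708, plus strand), stood at 701 and 729.9 CPM in Setd2-CD4 cre, against 739 and 718 CPM in WT. The genotypes overlapped. The log2 fold change was -0.026 (SE 0.11, 95% interval -0.29 to 0.23, edgeR adjusted p = 0.876), so a change of the size seen for Itgal lies outside the interval of Itgb2. Its sign turned (0.010) without Setd2-CD4 cre replicate 22. The other alpha partners of beta2, Itgam and Itgax, which mark myeloid cells, had few counts, with 51 and 14 counts in Setd2-CD4 cre against 101 and 74 in WT for Itgam and 58 and 60 counts in Setd2-CD4 cre against 122 and 94 in WT for Itgax. Of 10 macrophage and neutrophil markers 4 were tested and none was called (30.7% of all tested genes were), with summed levels of 5.16 and 11.6 CPM in Setd2-CD4 cre and 13.6 and 12.4 CPM in WT, and Mpo and Elane were at 0 throughout.

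Itgae showed the largest fitted change of the 10 chains. It encodes alphaE (CD103), which is induced by TGF-beta and marks T cells lodged in epithelium and a share of regulatory T cells. Itgae (ENSMUSG00000005947, chromosome 11, 73090583 to 73147446, plus strand) had 64 and 48 counts in Setd2-CD4 cre, against 168 and 191 counts in WT. On the scaled level this was 6.23 and 4.40 CPM in Setd2-CD4 cre, against 12.8 and 14.5 CPM in WT. Each Setd2-CD4 cre value was below each WT value, and the gap between genotypes was wider than the gap within either. The log2 fold change was -1.36 (SE 0.24, 95% interval -1.93 to -0.80, edgeR adjusted p = 0.0064), called under all 14 alternatives (-1.63 to -0.98, adjusted p = 4.45e-05 to 0.0469).

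Genes typical of regulatory T cells moved in both directions beside Itgae. Of 8 such markers 2 were called higher and 3 lower, where 16.2% of all tested genes were called higher and 14.5% lower. Their summed level was 1905 and 2062 CPM in Setd2-CD4 cre and 1991 and 2179 CPM in WT. Foxp3, which defines the lineage, had 10 and 129 counts in Setd2-CD4 cre replicates 22 and 24, against 235 and 231 counts in WT, and was not called (log2 fold change -1.46, edgeR adjusted p = 0.409). It was called under 2 of 14 alternatives, with log2 fold changes of -4.17 to -0.58 and adjusted p-values of 1.3e-10 to 0.749 over the 14. The Foxp3 count of replicate 22 was far below that of replicate 24, and both lay below the WT counts. Itgae and the 3 markers called lower lay below both WT libraries in both Setd2-CD4 cre libraries, as did 36.1% of all tested genes. The 3 markers were picked by being called lower, so this order does not tie them to Itgae. These markers were Gpr83 (log2 fold change -4.06), Lrrc32 (-1.45) and Il2ra (-0.64). The 2 called higher were Ikzf2 (0.58) and Ctla4 (0.56). The part of regulatory T cells in the Itgae difference was not tested.

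Itgb7, the beta7 chain that alphaE and alpha4 share (ENSMUSG00000001281, chromosome 15, 102215995 to 102231944, minus strand), stood at 278 and 297 CPM in Setd2-CD4 cre, against 367 and 339 CPM in WT. Its end in the deposited data is 102231935. The genotypes did not overlap. The log2 fold change of -0.30 (SE 0.11, 95% interval -0.55 to -0.046) missed the threshold (edgeR adjusted p = 0.0708). It passed under 6 of 14 alternatives, among them upper-quartile factors (-0.41, adjusted p = 0.0236) and library totals (-0.45, adjusted p = 0.0211), over a range of adjusted p from 0.00387 to 0.422.

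Itga4, the alpha4 chain of both the VCAM receptor and the gut-homing integrin (ENSMUSG00000027009, chromosome 2, 79255426 to 79333123, plus strand), stood at 189 and 231 CPM in Setd2-CD4 cre, against 223 and 197 CPM in WT. The libraries of the genotypes were interleaved. The log2 fold change was 0.0052 (SE 0.13, 95% interval -0.30 to 0.31, edgeR adjusted p = 0.98). Its sign turned under upper-quartile factors (-0.11), library totals (-0.14) and both limma-trend fits (-0.14 and -0.15), without WT replicate 15 (-0.086) and without Setd2-CD4 cre replicate 24 (-0.14). The end of Itga4 overlaps Cerkl on the other strand over 1124 exonic bases. The sources used here do not say whether the counting used strand, so reads of this stretch cannot be told apart, and Cerkl had 35 and 65 counts in Setd2-CD4 cre against 116 and 106 in WT.

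Itgb1, the beta1 chain that pairs with the widest set of alpha chains (ENSMUSG00000025809, chromosome 8, 128685654 to 128733200, plus strand), stood at 174 and 201 CPM in Setd2-CD4 cre, against 172 and 175 CPM in WT. The value of Setd2-CD4 cre replicate 22 fell between those of the WT libraries. It had a log2 fold change of 0.12 (SE 0.11, 95% interval -0.14 to 0.38, edgeR adjusted p = 0.456), with the sign turned under library totals (-0.033) and both limma-trend fits (-0.038 and -0.039). Itga6, the laminin-binding alpha6 chain (ENSMUSG00000027111, chromosome 2, 71745616 to 71858416, plus strand), stood at 52.8 and 67.0 CPM in Setd2-CD4 cre, against 90.6 and 82.5 CPM in WT. Both Setd2-CD4 cre libraries lay below both WT libraries. Its log2 fold change was -0.53 (SE 0.14, 95% interval -0.86 to -0.20, edgeR adjusted p = 0.0273). The call was lost without WT replicate 13 (-0.47, edgeR adjusted p = 0.167) and without WT replicate 15 (-0.60, adjusted p = 0.0893), within a range of 3.17e-05 to 0.167 over the alternatives.

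Itgb3 was the chain that rose. It encodes beta3, the partner of alphav in the vitronectin receptor and of alphaIIb in platelets. Itgb3 (ENSMUSG00000020689, chromosome 11, 104608000 to 104670476, plus strand) stood at 132 and 135 CPM in Setd2-CD4 cre, against 79.5 and 61.8 CPM in WT. The Setd2-CD4 cre libraries lay close together and above both WT libraries. The means were 134 ± 2.28 CPM in Setd2-CD4 cre and 70.7 ± 12.5 CPM in WT (SD, n = 2 each). The fitted log2 fold change was 0.92 (SE 0.14, 95% interval 0.60 to 1.24, edgeR adjusted p = 0.00357). The call held under all 14 alternatives (0.71 to 1.11, adjusted p = 3.43e-06 to 0.034). Platelet transcripts were near absent, with 5 of 7 markers at 0 in all libraries and the other 2, Pf4 and Ppbp, at no more than 4 counts in any (0 and 0.0916 CPM in all in Setd2-CD4 cre, 0.305 and 0 CPM in WT). Itga2b, the alphaIIb chain, had 54 and 64 counts in Setd2-CD4 cre against 111 and 81 in WT (log2 fold change -0.39, edgeR adjusted p = 0.293).

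Itgav, the alphav chain, was the least reproducible of the 10. Itgav (ENSMUSG00000027087, chromosome 2, 83724397 to 83806916, plus strand) had 1999 and 1119 counts in Setd2-CD4 cre replicates 22 and 24, against 588 and 1786 counts in WT replicates 13 and 15. In CPM this was 195 and 102 in Setd2-CD4 cre, against 44.8 and 136 in WT. WT replicate 15 lay between the Setd2-CD4 cre libraries and WT replicate 13 below all, so the genotypes overlapped. The Setd2-CD4 cre replicates differed 1.90-fold and the WT replicates 3.03-fold, where counting error at these depths was 2.24 to 4.12%. Of the 12927 tested genes, 586 (4.53%) were at least as far apart as Itgav between the Setd2-CD4 cre replicates, and 56 (0.433%) between the WT replicates. The log2 fold change was 0.72 (SE 0.80, 95% interval -2.05 to 3.49, edgeR adjusted p = 0.565). It was 0.12 without WT replicate 13, 1.72 without WT replicate 15, 0.19 without Setd2-CD4 cre replicate 22 and 1.11 without Setd2-CD4 cre replicate 24, and it was called in none of these fits (adjusted p = 0.11 to 0.937). The annotated genes that overlap Itgav had no counts in any library.

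Itgb8, which with alphav forms a receptor for latent TGF-beta (ENSMUSG00000025321, chromosome 12, 119158022 to 119238802, minus strand), stood at 1.95 and 3.21 CPM in Setd2-CD4 cre, against 2.51 and 2.97 CPM in WT. The Setd2-CD4 cre values enclosed the WT values. Counting error alone was 16 to 22.4% a library at this depth. It had a log2 fold change of -0.085 (SE 0.39, 95% interval -0.99 to 0.82, edgeR adjusted p = 0.884). The sign turned without WT replicate 15 (0.035) and without Setd2-CD4 cre replicate 22 (0.23).

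**Figure D3:**
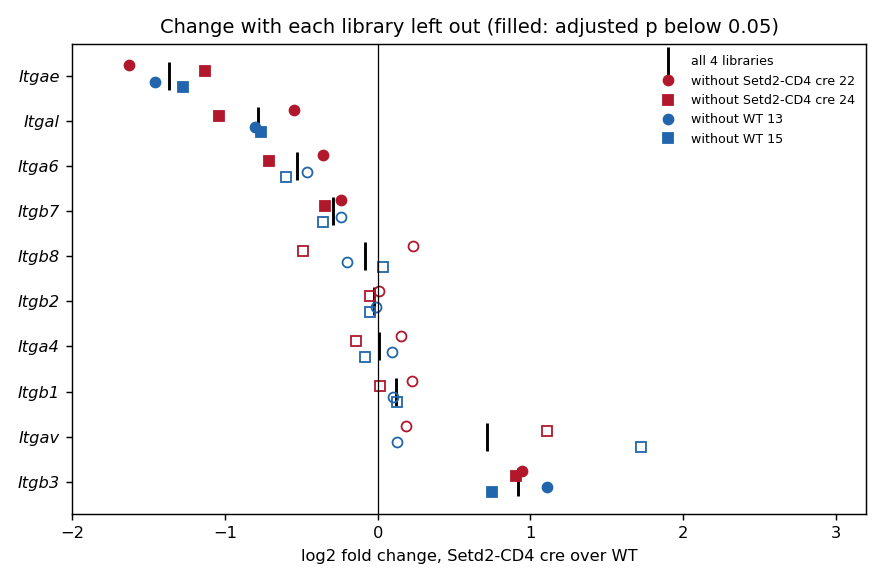
The horizontal axis gives the log2 fold change of Setd2-CD4 cre over WT for each chain with all 4 libraries (black bar) and with each library left out in turn (symbols, filled where the adjusted p was below 0.05). Itgae, Itgal and Itgb3 stay filled in all 4 fits, Itga6 is open without either WT library, and Itgav spreads from 0.12 to 1.72.

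The balance of partner chains was read as the log2 ratio of alpha to beta FPKM within a library, which does not depend on how libraries are scaled. For the pair Itgal and Itgb2 the ratio was 0.13 and 0.174 in Setd2-CD4 cre, against 0.25 and 0.264 in WT, a log2 difference of -0.78. For Itgae and Itgb7 it was 0.0133 and 0.0088 in Setd2-CD4 cre, against 0.0208 and 0.0255 in WT, a log2 difference of -1.09 (-0.53 with 1 FPKM added to both chains). For Itga6 and Itgb1 it was 0.139 and 0.153 in Setd2-CD4 cre, against 0.242 and 0.217 in WT, a log2 difference of -0.65. In these 3 pairs the alpha chain was lower relative to its partner in both Setd2-CD4 cre libraries than in both WT libraries. For Itga4 and Itgb7 the ratio was 0.122 and 0.139 in Setd2-CD4 cre, against 0.109 and 0.104 in WT, a log2 difference of 0.30 in the other direction.

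The ratio of Itga4 to Itgb1 was 0.393 and 0.416 in Setd2-CD4 cre, against 0.469 and 0.408 in WT, and overlapped. The 3 ratios with Itgav overlapped as well, and that of Itgav to Itgb3 was 0.921 and 0.474 in Setd2-CD4 cre, against 0.352 and 1.37 in WT. Its log2 difference of -0.075 was -1.06 without WT replicate 13 and 0.91 without WT replicate 15. The log2 difference of Itgav to Itgb8 was 0.98, and it was 0.30 without WT replicate 13, 1.67 without WT replicate 15, 0.16 without Setd2-CD4 cre replicate 22 and 1.81 without Setd2-CD4 cre replicate 24. That of Itgav to Itgb1 was 0.74, and it was -0.046 without WT replicate 13, 1.53 without WT replicate 15, 0.18 without Setd2-CD4 cre replicate 22 and 1.31 without Setd2-CD4 cre replicate 24. Each of the 8 pairs was tested with an exact two-sided permutation test, which with 2 libraries against 2 cannot give a p below 0.333. The 4 pairs without overlap reached p = 0.333 by that exact test (adjusted p = 0.667 over the 8 pairs), the smallest p that test can give here, so it does not show whether these ratios differ.

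**Figure D4:**
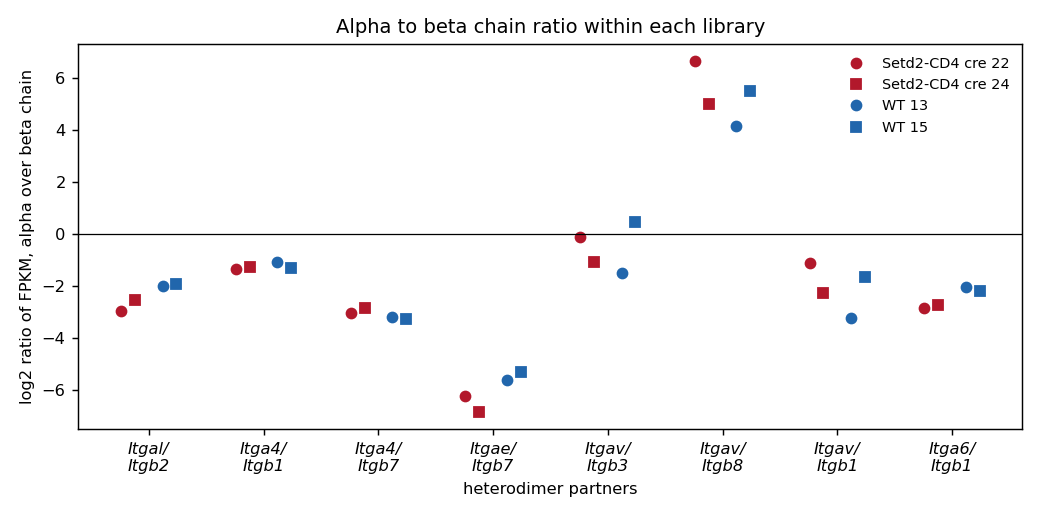
The vertical axis gives the log2 ratio of alpha to beta chain FPKM within each library for 8 heterodimers, with 1 point a library (Setd2-CD4 cre in red, WT in blue). For Itgal and Itgb2, Itgae and Itgb7, and Itga6 and Itgb1 both red points lie below both blue points, and the ratios with Itgav are the most scattered.

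Of the 17 other integrin chain genes, all were found in 18 rows and 12 rows were tested, of which 2 were called higher and 2 lower, near the 30.7% called over all tested genes, with a median log2 fold change of -0.50. Itga3, the alpha3 chain of a laminin receptor, stood at 85.6 and 76.8 CPM in Setd2-CD4 cre, against 40.9 and 48.6 CPM in WT (log2 fold change 0.86, SE 0.14, edgeR adjusted p = 0.00397). Itga5, the alpha5 chain of the fibronectin receptor, stood at 7.40 and 8.06 CPM in Setd2-CD4 cre, against 15.2 and 15.1 CPM in WT (-0.97, SE 0.19, adjusted p = 0.00936), and was not called without WT replicate 13 (0.0716) or WT replicate 15 (0.0738). Both chains pair with beta1, as Itga6 does, and these 3 alpha chains of beta1 did not share a direction. Itga11, the alpha11 chain of a collagen receptor, had 14 and 25 counts in Setd2-CD4 cre against 1 and 0 in WT. It was called higher (log2 fold change 5.24, SE 0.92, edgeR adjusted p = 0.00595), with log2 fold changes of 0.39 to 7.40 over the alternatives. The ratio of summed counts over TMM-scaled totals was 48.4 (95% interval from counting error alone, 8.18 to 1958). Itga9 had 4 and 2 counts in Setd2-CD4 cre against 16 and 16 in WT (-2.06, edgeR adjusted p = 0.0445), a call lost under 8 of 14 alternatives (up to 0.257). Itgax, given above in counts, did not pass (-0.56, edgeR adjusted p = 0.125).

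Proteins that activate integrins or link them to actin were tested for 40 of 45 listed genes, of which 9 were called higher and 6 lower, where 16.2% of all tested genes were called higher and 14.5% lower, with a median log2 fold change of -0.025. Slc3a2, the heavy chain of CD98, an amino acid carrier that binds beta chains, stood at 322 and 240.1 CPM in Setd2-CD4 cre, against 111 and 131 CPM in WT (1.22, SE 0.16, edgeR adjusted p = 0.00256). Flna, which encodes filamin A, a protein that competes with talin for beta tails, stood at 244 and 306 CPM in Setd2-CD4 cre, against 499.7 and 497 CPM in WT (-0.86, SE 0.13, adjusted p = 0.00374). Krit1, whose product binds Rap1 and an inhibitor of beta1, rose (0.70, SE 0.11, adjusted p = 0.0035). Cytip, a cytohesin-binding regulator of LFA-1 adhesion (0.66, adjusted p = 0.00874), and Dok1, an adaptor that binds beta tails (0.65, adjusted p = 0.00968), rose as well, and neither was called without WT replicate 13 or WT replicate 15 (0.063 to 0.107). Tln1, the talin gene, named after its values were seen, stood at 301 and 340.2 CPM in Setd2-CD4 cre, against 456 and 464 CPM in WT (-0.52, SE 0.11, adjusted p = 0.0126), and was not called without WT replicate 13 (0.0886) or WT replicate 15 (0.113). Without WT replicate 13, and likewise without WT replicate 15, the list held 2 higher and 1 lower.

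Integrin ligands were tested for 11 of 22 listed genes, with a median log2 fold change of 0.22, and 0 were called by edgeR (30.7% of all tested genes were), 0 by DESeq2 and 0 by limma-voom. At an unadjusted p below 0.05 edgeR gave 2, Fn1, the fibronectin gene (28 and 17 counts in Setd2-CD4 cre, 13 and 5 in WT, adjusted p = 0.0687), and Nid1, the gene of the basement membrane protein nidogen (37 and 104 counts in Setd2-CD4 cre, 28 and 45 in WT, adjusted p = 0.0994). Icam1, a ligand of LFA-1, had 437 and 589 counts in Setd2-CD4 cre against 796 and 733 in WT (-0.27, adjusted p = 0.197), and Icam2 had 54 and 39 counts in Setd2-CD4 cre against 80 and 89 in WT (-0.55, adjusted p = 0.188). Madcam1, the ligand of alpha4 with beta7, had no counts in any library, which allows a level of up to 0.292 and 0.275 CPM in the Setd2-CD4 cre libraries and 0.228 CPM in each WT library, the worth of 3 counts. Without a filter on low counts 1 ligand gene was called. Leaving out Setd2-CD4 cre replicate 24 gave 1 ligand gene higher and 3 lower, and leaving out Setd2-CD4 cre replicate 22 gave 2 higher.

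Genes of latent TGF-beta, which alphav integrins open, were tested in 9 of 14 rows, with 1 called lower and none higher, where 14.5% of all tested genes were called lower, and a median log2 fold change of -0.35. Lrrc32, which encodes GARP, the protein that holds latent TGF-beta on regulatory T cells, stood at 10.5 and 20.4 CPM in Setd2-CD4 cre, against 40.7 and 44.3 CPM in WT (-1.45, SE 0.30, edgeR adjusted p = 0.0157, and 0.0517 without WT replicate 15), and is also 1 of the 8 regulatory T cell markers. Tgfb1 stood at 117 and 101 CPM in Setd2-CD4 cre, against 128 and 150.1 CPM in WT (-0.35, adjusted p = 0.0721). Nrros, a relative of GARP on myeloid cells (-0.51, adjusted p = 0.0709), Ltbp4 (-0.99, adjusted p = 0.0561) and Ltbp2 (1.09, adjusted p = 0.167) did not pass. The number lower was 4 with library totals, 4 under upper-quartile factors, 4 without Setd2-CD4 cre replicate 24, 2 without Setd2-CD4 cre replicate 22 and 0 without WT replicate 15.

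Other adhesion and homing receptors were tested for 20 of 21 listed genes, with 2 called higher and 4 lower, near the 30.7% called over all tested genes, and a median log2 fold change of 0.18. Klf2, a transcription factor of quiescent T cells, stood at 19.3 and 23.7 CPM in Setd2-CD4 cre, against 81.2 and 64.7 CPM in WT (-1.76, SE 0.17, edgeR adjusted p = 0.00106). Spn, which encodes the mucin CD43, fell (-0.77, SE 0.11, adjusted p = 0.00285), and Alcam, the ligand of CD6, rose (1.45, SE 0.13, adjusted p = 0.000939). Cd69, an activation antigen that holds T cells in tissue, had a log2 fold change of 0.49 (adjusted p = 0.0277) and was lost under 6 of 14 alternatives (up to 0.202). The number higher was 1 without WT replicate 13, 1 without WT replicate 15, 4 without Setd2-CD4 cre replicate 22 and 8 without Setd2-CD4 cre replicate 24.

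**Figure D5:**
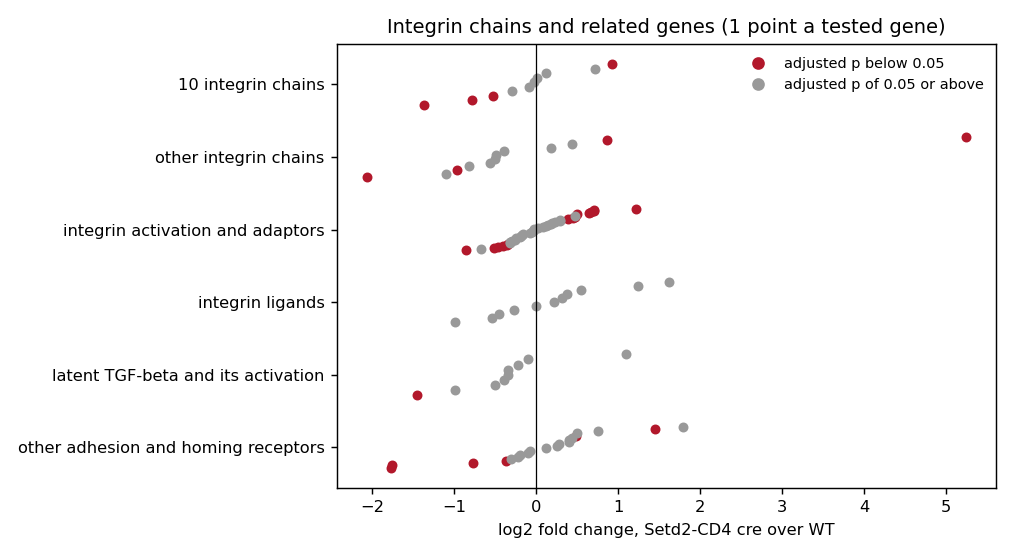
The horizontal axis gives the log2 fold change of Setd2-CD4 cre over WT, with 1 point a tested gene, for the 10 integrin chains and 5 lists of related genes. Points in red passed an adjusted p of 0.05, and no ligand gene is red.

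For Itgae, the called chain with the largest change, the 3 genes with the nearest pattern over the 4 libraries were Zfp40, Kcnk7 and Slc39a3. They were sought among tested genes, leaving out predicted genes and those with clone-style or digit-led names. Likeness was the Euclidean distance of log2(CPM + 0.5) centred per gene, and the distances were 0.0633, 0.0789 and 0.087. Zfp40 had 122 and 92 counts in Setd2-CD4 cre against 330 and 357 in WT. Kcnk7 had 12 and 8 counts in Setd2-CD4 cre against 40 and 44 in WT, few enough for the added 0.5 CPM to weigh on its distance. Within Itgae lies Haspin, a kinase gene on the other strand that shares no exonic base with it, with 128 and 219 counts in Setd2-CD4 cre against 471 and 497 in WT.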

How the data were processed

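RNA was sequenced in 4 mouse Th17 libraries, grouped by their titles. The library titled 15 carries 14 in its cell type label, and was named by its title. The authors deposited whole-number read counts and FPKM per gene, per the file headers. Bowtie2, RSEM, GRCm38.p6 and mm10 are named in the submitters' processing notes, without versions or roles. The sources used here do not give strand use or how reads were shared between genes. No per-sample column was unused (0). Gene spans and overlaps came from GENCODE M21 (GRCm38), which held 34267 of the 34745 identifiers. Between replicates, chi-square over its degrees of freedom was 17.4 in Setd2-CD4 cre and 8.27 in WT, above sampling noise.

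Counts were tested with edgeR 4.0.16 in R 4.3.3 (TMM factors from 0.934 to 1.06, filterByExpr, robust quasi-likelihood fit, Benjamini-Hochberg adjustment over 12927 genes). The SE was taken from the fold change and its F statistic. Alternatives were other scalings and filters, DESeq2 1.42.0, limma 3.58.1 (voom, and trend on log2 FPKM with 1 or 0.1 added), no robust estimation, each library left out and, chosen after the data were seen, another gene length for level ranks. In simulated counts for this comparison with 200 of 12927 genes changed, the test found 15 of 67 at 1.5-fold, 42 of 67 at 2-fold and 64 of 66 at 4-fold, with 8 false among 129 calls. The simulation changed a far smaller share of genes than the 30.7% called in the data. It also gave each gene the trended dispersion, without spread of its own, so these rates need not hold for the data. The chains and lists were chosen with earlier results of these data known. Named genes are the 10 chains, up to 5 genes of smallest p a list, Setd2 and the 3 nearest patterns, and 1 gene under that rule is not reported here. Intervals from counts cover counting error only.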

Additional observations from a re-analysis of the deposited data

How the results depend on the processing

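The 4 calls among the chains were tried under 14 alternatives, and Itgal, Itgae and Itgb3 were called in the same direction in all of them. Of the fits that left out 1 library each, all gave 1 chain higher, and they gave 2 to 4 chains lower. Signs turned only for chains that did not pass. Itga4 had -0.11 by upper-quartile scaling, -0.14 by library totals, -0.14 and -0.15 by limma-trend on log2(FPKM + 1) and log2(FPKM + 0.1), and -0.14 to 0.15 when each library was left out (-0.086 without WT replicate 15). Itgb1 had -0.033 with library totals and -0.038 and -0.039 by those limma-trend fits. With each library left out, Itgb2 had -0.053 to 0.010 (the highest without Setd2-CD4 cre replicate 22) and Itgb8 -0.49 to 0.23 (0.035 without WT replicate 15). The cause was not tested.

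Upper-quartile factors and library totals put the median log2 fold change of all tested genes at -0.12 and -0.16, against -0.0088, and each chain is read relative to it. They called 1565 genes higher and 2617 lower, and 1409 higher and 2879 lower (37.4 and 32.9% of calls higher, against 52.7%), and limma-trend, with medians of -0.12 and -0.16 too, called 1247 or 1260 higher (31.7 and 32.4%). Leaving out each library gave 718 to 3068 genes higher and 564 to 2903 lower, the fewest without WT replicate 13 (922 and 737) and WT replicate 15 (718 and 564). Genes that activate integrins or link them to actin numbered 5 higher by upper-quartile scaling, 5 higher by library totals (10 lower), and 2 to 12 higher and 1 to 10 lower when each library was left out. Latent TGF-beta genes numbered 4 lower under both scalings and 0 to 4 lower with a library left out, adhesion and homing receptors 1 higher under upper-quartile factors and 1 to 8 higher and 3 to 5 lower with a library left out, other integrin chains 2 to 4 higher and 0 to 2 lower, and ligands 0 to 2 higher and 0 to 3 lower. Fits with 1 library in a genotype assume that it varies like the others. No paired analysis was possible because the genotypes share no replicate number.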

Other observations

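Of 7552 tested genes with a mean of at least 20 CPM, 78 were at least 2-fold apart between the Setd2-CD4 cre replicates, 63 between the WT replicates and 16 in both. Itgav, at 1.90-fold in Setd2-CD4 cre and 3.03-fold in WT, is not among the 16. Crk, an adaptor gene of integrin signalling, was 1 of the 16, with 247 and 905 counts in Setd2-CD4 cre replicates 22 and 24 against 323 and 1134 counts in WT replicates 13 and 15. Tmed2, a cargo receptor gene of the early secretory pathway, had 21 and 1181 counts in Setd2-CD4 cre against 22 and 1044 in WT. For Crk and Tmed2 the higher libraries were Setd2-CD4 cre replicate 24 and WT replicate 15, and for Itgav they were Setd2-CD4 cre replicate 22 and WT replicate 15. Pygo2, Nfe2l1, Lrrc47, Idi1, Zmym1 and Tmem164, also among the 16, had the order of Itgav. The rest of the 16 had the order of Crk or another order. All genes of this paragraph but Itgav were named after their values were seen.

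A second identifier that the deposited table names Itgam (ENSMUSG00000108596) had 7 and 45 counts in Setd2-CD4 cre and none in WT, and it did not pass the filter on low counts. The first Itgam identifier had 51 and 14 counts in Setd2-CD4 cre against 101 and 74 in WT. The deposited spans of both overlap on chromosome 7, and the sources used here do not say how reads were shared.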
